A study of Mus musculus with 18 samples.

Results

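To examine whether supplied aspartate acted on the transcripts of AOA-treated cells differently once cytosolic DNA was sensed, the aspartate effect in cells given DNA was compared with the aspartate effect in cells given none. RNA of L929 cells, a line of mouse fibroblasts, had been sequenced in 6 groups of 3 cultures, and the comparison used 12 of the 18 libraries. The groups had received AOA alone (AOA), AOA plus aspartate (AOA+Asp), HT-DNA after AOA (HT+AOA), or all 3 agents (HT+AOA+Asp), so every culture compared carried AOA. AOA, or aminooxyacetic acid, blocks aminotransferases. It was used at 0.5 mM and was given 1 h before HT-DNA, aspartate was used at 20 mM, and HT-DNA (herring testis DNA, a ligand of cGAS) was transfected at 0.5 μg/ml for 6 h. For the groups without HT-DNA the labels do not state how long AOA was present, and no group received aspartate without AOA. The remaining 6 libraries, Mock and HT-DNA without AOA, gave the response of untreated cells to HT-DNA.

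The value reported for a gene, called the interaction here, is a log2 difference of differences. It is the log2 fold change of HT+AOA+Asp over HT+AOA minus that of AOA+Asp over AOA. A negative interaction means that aspartate lowered the gene more, or raised it less, when HT-DNA was present, and the same number is also the HT-DNA response under AOA+Asp minus the HT-DNA response under AOA. In bulk RNA, more RNA in each cell and more cells with that RNA cannot be told apart.

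As background, double-stranded DNA in the cytosol is bound by cGAS, whose product cGAMP activates STING and, through TBK1, the transcription factor IRF3. IRF3 switches on type I interferon and a first set of genes. Secreted interferon then acts through STAT2 and IRF9, among other factors, to raise the interferon-stimulated genes (ISGs), among them IRF7, which amplifies the loop. Aspartate is made by the aminotransferases that AOA blocks, and it is a building block of pyrimidines, purines and asparagine. A shortage of amino acids raises the ATF4 program, which includes Asns (asparagine synthetase), Ddit3 (CHOP) and Trib3.

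The 12 libraries held 17901605 to 24057343 estimated counts. Of 10 fibroblast markers 8 passed the filter on low counts. Among these, Vim (vimentin) was at 2300 to 2966 CPM (counts scaled to the size of the library) and Col1a1 at 116.6 to 158.6 CPM over the 18 libraries. The fibroblast marker Thy1 did not pass, with 0 to 4 counts in each library. Of 10 epithelial and endothelial markers 0 passed the filter on low counts, and of 9 macrophage and leukocyte markers 3 did. These were Cd68, a lysosomal protein gene that fibroblasts also express, at 110 to 155.2 CPM, and Lyz2 and Cd14, whose highest values were 1.138 and 1.213 CPM. The libraries of HT+AOA stood apart from each other. Their mean SD per gene was 0.218 on the log2 CPM scale, against 0.0874 to 0.122 in the other groups, and the deviations of replicates 1 and 3 from their group mean correlated across genes with GC content at -0.409 and 0.487. Counts of genes are therefore also given without these libraries.

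Aspartate changed the expression of many genes under both conditions. With HT-DNA, edgeR's quasi-likelihood test, with p-values adjusted by the Benjamini-Hochberg method, called 6797 of 14263 tested genes (47.7%) at an adjusted p under 0.05, and without HT-DNA it called 6600 (46.3%). Both effects were called for 5048 genes, of which 5022 changed in the same direction and 26 in opposite directions. The interaction itself was called for 150 genes (1.05%). It was negative for 112 (0.785% of those tested) and positive for 38 (0.266%), while 1504 genes had an unadjusted p under 0.05 and the median over all tested genes was 0.0116.

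**Figure D1:**
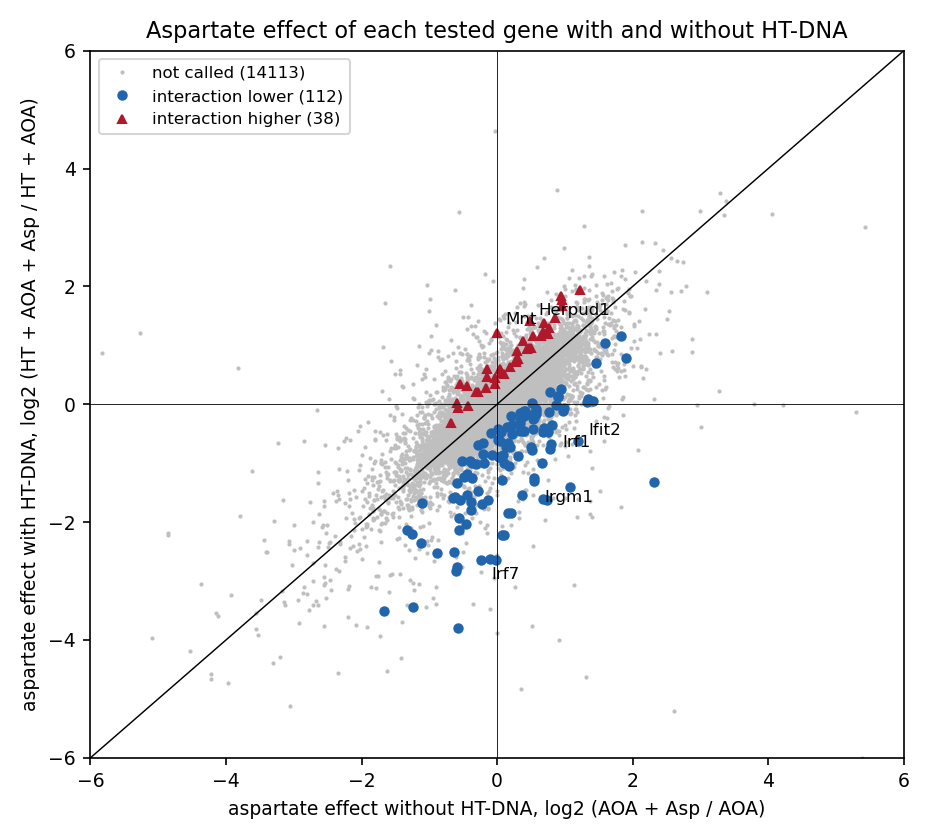
Aspartate effect of each tested gene without HT-DNA (x axis, log2 of AOA+Asp over AOA) and with HT-DNA (y axis, log2 of HT+AOA+Asp over HT+AOA). Grey points were not called for the interaction, blue circles are the 112 genes with a negative interaction, red triangles the 38 with a positive one, the diagonal marks equal effects, and 17 genes lie outside the axes, which end at 6. Most genes follow the diagonal, and the blue genes reach further below it than the red genes rise above it.

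The count and its split depended on the HT+AOA libraries. Without HT+AOA replicate 1, 188 genes were lower and 182 higher, and without replicate 3, 246 were lower and 170 higher. Without AOA replicate 3 or AOA+Asp replicate 3 the total was 185 or 101. Without any of the 8 others it was 69 to 98, the fewest without AOA replicate 2, with 56 lower and 13 higher. Correcting for GC content and length gave 212 lower and 180 higher genes. All 150 genes were called again in the same direction without HT+AOA replicate 3 and 146 were without replicate 1.

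**Figure D2:**
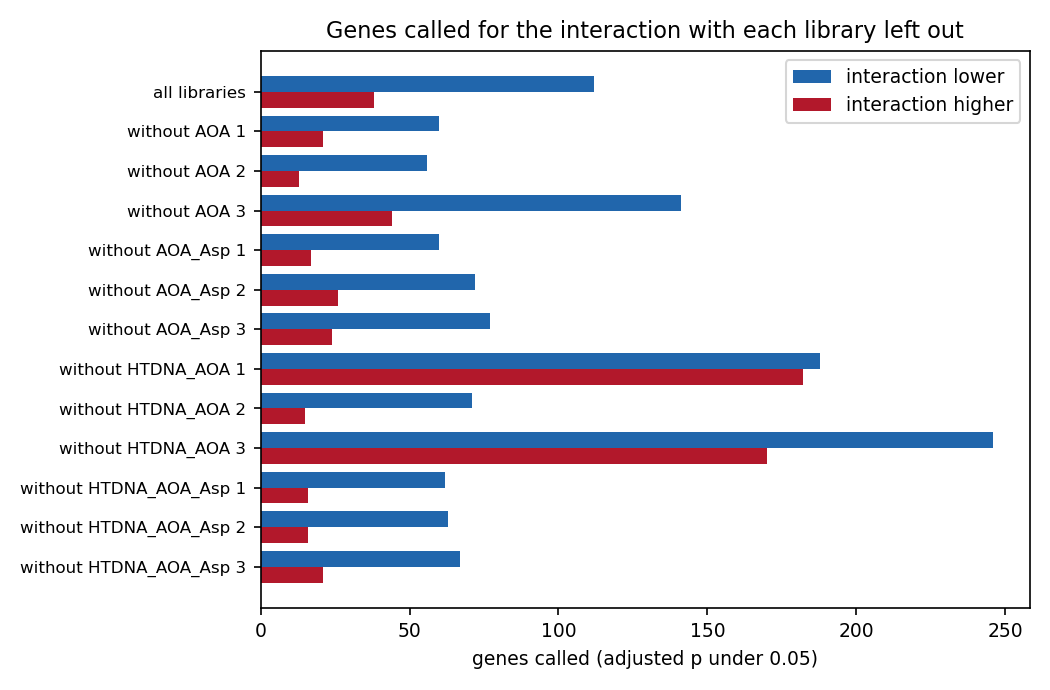
Number of genes called for the interaction (x axis, adjusted p under 0.05) with all libraries and with each of the 12 libraries left out in turn. Blue bars count genes with a negative and red bars genes with a positive interaction. Blue bars are the longer ones in every row, and the red bars approach them without HTDNA_AOA 1 (182 against 188), where HTDNA_AOA is HT+AOA.

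The genes with a negative interaction held many interferon genes. Of 137 tested members of 7 lists of interferon ligands, chemokines, ISGs, GTPases, sensors, IRF and STAT genes and antigen presentation, 36 had a negative and 0 a positive interaction. The shares over all tested genes were 0.785% and 0.266%. Among the 112 genes, 36 were in these lists and 69 were in none of the 23 lists examined.

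The IRF, STAT and interferon receptor genes carry the signal to the nucleus. Of 19 tested, 5 had a negative and 0 a positive interaction (0.785% and 0.266% of all tested genes), at a list median of -0.343. Irf7 (ENSMUSG00000025498), the interferon-induced factor of the amplification loop, was at 2.43, 2.70 and 3.20 CPM with AOA, 2.01, 2.98 and 2.11 with AOA+Asp, 26.0, 19.6 and 27.3 with HT+AOA, and 3.97, 3.90 and 3.74 with HT+AOA+Asp. All 3 HT+AOA libraries were far above the other 9, and AOA and AOA+Asp overlapped. Its interaction was -2.42 ± 0.23 (SE, edgeR's quasi-likelihood test, adjusted p = 1.91e-05), from an aspartate effect of -2.65 with HT-DNA and -0.23 without.

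Irf1 (ENSMUSG00000018899), a factor induced by interferon-gamma and by interferon-beta, moved in opposite directions. It was at 8.80, 7.99 and 7.04 CPM with AOA and rose to 13.6, 12.7 and 14.6 with AOA+Asp, whereas it fell from 36.9, 32.3 and 36.2 with HT+AOA to 21.4, 22 and 18.9 with HT+AOA+Asp. The libraries of neither pair overlapped (48.8% of all tested genes did not overlap with HT-DNA and 56.8% did not without it). The aspartate effects were 0.78 without and -0.76 with HT-DNA on the log2 scale, and the interaction was -1.54 ± 0.13 (SE, edgeR, adjusted p = 7.28e-06). In cells without AOA, mean Irf1 was 13.1 CPM in Mock and 22.2 with HT-DNA. In both settings the level with aspartate was thus nearer to the level without AOA than the level with AOA was.

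Stat2 (ENSMUSG00000040033), a subunit of the ISGF3 complex, showed the same reversal. AOA gave 11.4, 10.5 and 9.71 CPM, AOA+Asp 18.8, 16.6 and 19.7, HT+AOA 70.9, 56.9 and 56.6, and HT+AOA+Asp 40.9, 37.6 and 37.3. Aspartate raised it without HT-DNA and lowered it with HT-DNA, with no overlap in either pair (interaction -1.48 ± 0.14 SE). Irf9, which is also part of ISGF3, was at 16.8, 16.8 and 15.7 CPM with AOA, 13.2, 13.3 and 14 with AOA+Asp, 71, 67.6 and 75.8 with HT+AOA, and 27.5, 26.4 and 23.2 with HT+AOA+Asp. It fell by 0.28 without and by 1.48 with HT-DNA, and neither pair overlapped (interaction -1.19 ± 0.12 SE).

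**Figure D3:**
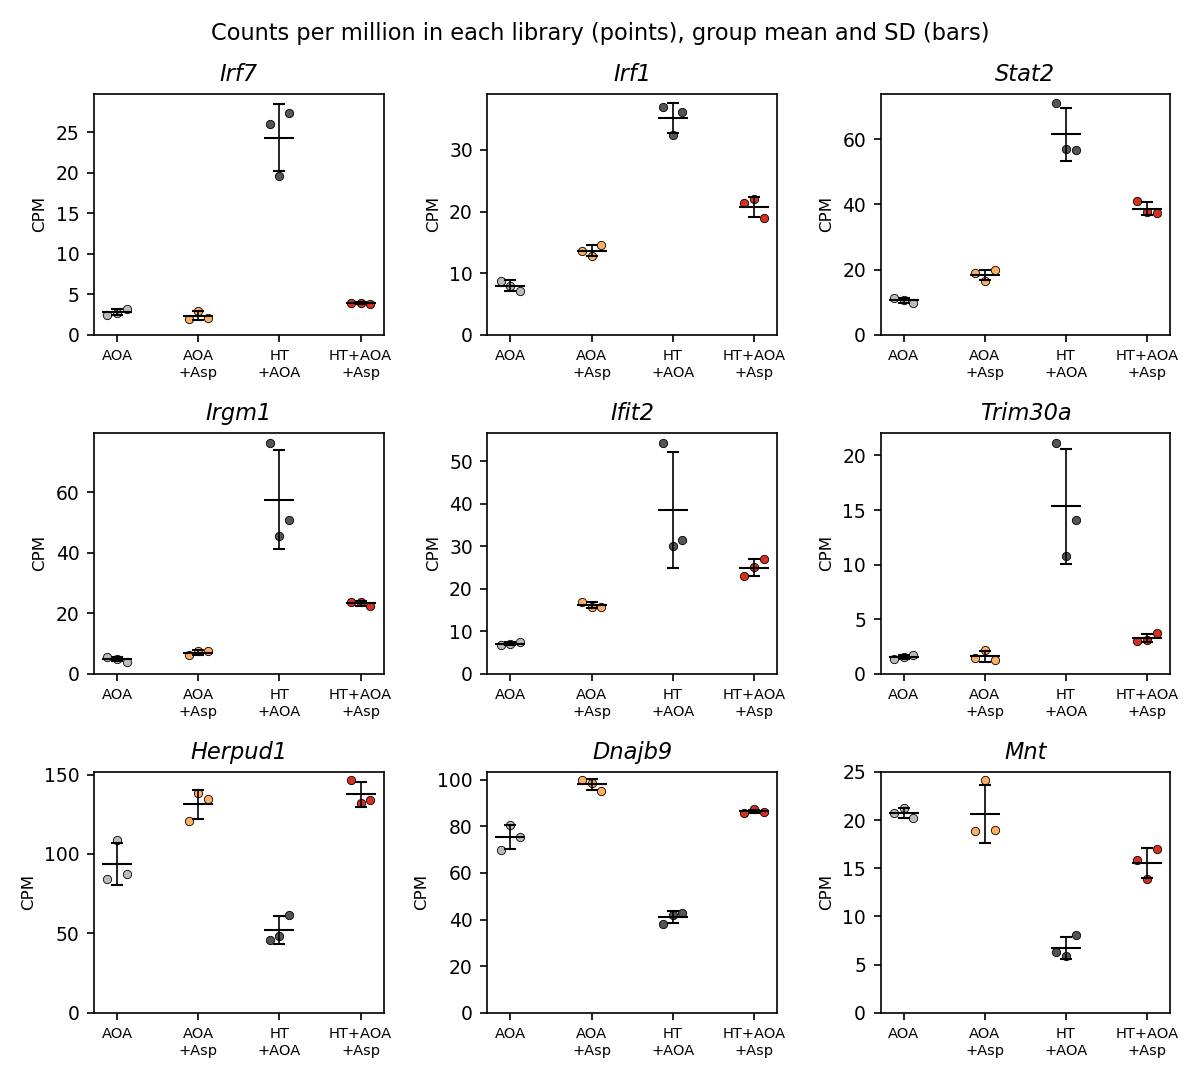
CPM (y axis, from 0) of 9 genes with an interaction in each of the 12 libraries (points), with the group mean and SD of 3 libraries (bars), where HT stands for HT-DNA. In the upper 6 panels HT+AOA is the highest group and HT+AOA+Asp is below it, while Irf1, Stat2, Irgm1 and Ifit2 are higher with AOA+Asp than with AOA. In the lower 3 panels HT+AOA is the lowest group.

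Antiviral ISGs made up the largest set. Of 56 tested members, 23 had a negative and 0 a positive interaction (0.785% and 0.266% of all tested genes). Of the 56 values 54 were below 0, and the list median was -1.23 (-1.21 without 6 genes that had at most 3 counts in every library of a group). With HT-DNA, aspartate lowered 50 of the 56 and raised 1 (23.9% and 23.7% of all tested genes). Without HT-DNA it lowered 20 and raised 5 (22.8% and 23.5%). The count of 23 was 16 to 32 with each library left out.

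Phf11d, a PHD-finger gene induced by interferon, was at 1.09, 0.816 and 1.22 CPM with AOA and 0.886, 0.881 and 1.10 with AOA+Asp, against 13.8, 8.11 and 10.4 with HT+AOA and 1.31, 1.88 and 2.04 with HT+AOA+Asp. The pair without HT-DNA overlapped and the pair with it did not (interaction -2.53 ± 0.36 SE). Trim30a, a TRIM-family regulator, was at 21.1, 10.8 and 14.1 CPM with HT+AOA and 3.05, 3.08 and 3.69 with HT+AOA+Asp, and between 1.22 and 2.15 in the 6 libraries without HT-DNA, where the groups overlapped (interaction -2.29 ± 0.39). HT+AOA replicate 1 was the highest library for both genes.

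Parp14, an ADP-ribosyltransferase of the macrodomain family, was at 30.1, 15.9 and 15.5 CPM with HT+AOA and 7.64, 5.87 and 6.72 with HT+AOA+Asp, and its interaction of -2.28 ± 0.42 lost its call in 3 of 23 alternative analyses. Usp18, the protease that removes ISG15 from proteins and restrains interferon receptor signaling, fell in both settings, from 1.40, 1.5 and 1.92 to 0.513, 0.783 and 0.716 CPM without HT-DNA and from 43.9, 35.7 and 50.4 to 4.59, 4.04 and 3.31 CPM with it. The second fall was the larger (interaction -2.20 ± 0.36). Uba7, the activating enzyme for ISG15, had 13.8, 10.5 and 13.5 CPM with HT+AOA and 2.42, 2.07 and 2.13 with HT+AOA+Asp, with an interaction of -1.87 ± 0.36 that lost its call in 3 of 22 alternatives.

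The IFIT genes, whose proteins bind foreign RNA, differed among themselves. Ifit2 rose with aspartate from 6.73, 7 and 7.50 to 16.9, 15.7 and 15.8 CPM without HT-DNA and fell from 54.4, 30.0 and 31.6 to 23, 25.1 and 27 with it. Neither pair overlapped, and HT+AOA replicate 1 was well above its 2 partners (interaction -1.82 ± 0.27). Mean Ifit2 without AOA was 17.6 CPM in Mock and 17.4 with HT-DNA, nearer to the groups with aspartate in both settings. Ifit1 had 4099, 3448 and 3047 estimated counts with HT+AOA and 1497, 1523 and 1487 with HT+AOA+Asp, but 1, 3 and 4 with AOA and 5, 7 and 7 with AOA+Asp. Its interaction of -2.49 ± 0.53 therefore rests on single counts in the groups without HT-DNA, and it lost its call in 6 of 22 alternatives.

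Not every ISG with a large aspartate effect showed an interaction. Isg15, a ubiquitin-like modifier, fell from 103.4, 112.2 and 155.5 to 37.6, 38.5 and 30.6 CPM with HT-DNA and from 1.81, 2.32 and 1.57 to 1.07, 1.27 and 0.800 CPM without it. The groups were apart in both settings, and the interaction was -0.91 ± 0.34 (edgeR, adjusted p = 0.28, with a range of 0.0304 to 0.561 over the alternatives). Cxcl10, the interferon-type chemokine of this response, was at 278.9, 234.2 and 286.4 CPM with HT+AOA and 26.8, 28.0 and 25.4 with HT+AOA+Asp. It had 11, 7 and 6 counts with AOA and 0, 0 and 2 with AOA+Asp, too few for a fold change, so that no interaction can be stated for it. Of 7 tested chemokines of this type 0 were called for the interaction by edgeR, DESeq2 or limma-voom and 1 had an unadjusted p under 0.05. Over all 14263 tested genes edgeR called 1.05% and 1504 had such a p, so 0 of 7 does not show that an interaction is absent. All 7 fell with aspartate under HT-DNA (23.9% of all tested genes did), and 4 of them had a group at no more than 3 counts.

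Interferon ligands were below the filter on low counts. Ifnb1, the interferon gene most directly controlled by IRF3, had 6, 4 and 2 counts with HT+AOA, 1, 0 and 0 with HT+AOA+Asp, and 0 in the other 12 libraries. A count of 0 allows up to 3 counts, so a difference was not detectable at this depth outside HT+AOA.

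Promoter letters were examined for 5 elements, since the negative genes moved together. An ISRE was searched as GAAA, any 2 bases and GAAA, and a GAS as TTCNNNGAA, on both strands, in RefSeq windows of 300 bases (250 before and 50 after a start, GRCm38.p6). The ISRE letters were in 18 of 86 negative genes with a window (20.9%), against 3.76% of 9840 tested genes and 3.99% of all genes with one. The GAS letters were also in 18 of the 86 (20.9%, against 8.22%). In the positive genes the ISRE letters were in 2 of 31 (6.45%) and the GAS letters in 4 (12.9%). The other elements were an ERSE (CCAAT, any 9 bases and CCACG), a CARE (TGATGNAA) and a FOXO element (GTAAACA). Their letters were in 0, 4 and 3 of the 86 negative genes and in 0, 2 and 1 of the 31 positive genes, against 0.183%, 2.77% and 3.02% of the tested genes. Within the antiviral ISGs the share did not set the called genes apart, since the ISRE letters were in 8 of 17 genes with a negative interaction (47.1%) and in 16 of 27 that were not called (59.3%). The 250 bases before the start of Ifit1 (interaction negative), Irf1 (negative, with opposite aspartate effects) and Cxcl10 (no value, large aspartate effect with HT-DNA) are shown from 5′ to 3′ because they hold these letters, which are in capitals. Ifit1 (chr19:34640639-34640888, plus strand) has the ISRE letters at 2 places, Irf1 (chr11:53769764-53770013, plus strand) has 1 palindromic GAS, read on both strands, and Cxcl10 (chr5:92348890-92349139, minus strand) has 1 ISRE. These are matches of letters and not shown to be bound sites.
Ifit1: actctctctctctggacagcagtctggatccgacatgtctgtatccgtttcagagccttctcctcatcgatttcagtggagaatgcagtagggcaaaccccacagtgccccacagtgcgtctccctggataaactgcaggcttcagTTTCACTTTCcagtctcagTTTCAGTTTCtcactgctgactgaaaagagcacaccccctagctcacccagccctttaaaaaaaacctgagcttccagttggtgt
Irf1: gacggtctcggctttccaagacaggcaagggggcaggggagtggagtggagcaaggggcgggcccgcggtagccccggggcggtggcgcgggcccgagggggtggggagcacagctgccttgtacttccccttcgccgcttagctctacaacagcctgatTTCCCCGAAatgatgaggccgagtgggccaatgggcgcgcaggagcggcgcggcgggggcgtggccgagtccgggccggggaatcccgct
Cxcl10: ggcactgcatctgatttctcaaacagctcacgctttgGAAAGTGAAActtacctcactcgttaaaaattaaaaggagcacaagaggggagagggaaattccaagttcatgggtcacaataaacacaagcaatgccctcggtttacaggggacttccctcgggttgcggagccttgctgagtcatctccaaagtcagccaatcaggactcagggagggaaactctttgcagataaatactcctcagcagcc

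Of 13 tested interferon-inducible GTPases, 3 had a negative and 0 a positive interaction (0.785% and 0.266% of all tested genes). In 7 of the 13, a group had at most 3 counts in every library. Irgm1 (ENSMUSG00000046879) was at 5.38, 4.89 and 4.01 CPM with AOA, 6.16, 7.39 and 7.41 with AOA+Asp, 76.1, 45.6 and 50.9 with HT+AOA, and 23.8, 23.8 and 22.4 with HT+AOA+Asp. It was thus a further gene that aspartate raised without HT-DNA and lowered with it, with no overlap in either pair (interaction -1.85 ± 0.23). Mean Irgm1 without AOA was 9.30 CPM in Mock and 19.7 with HT-DNA, nearer to the groups with aspartate in both settings. Irgm2 fell from 34.5, 24.9 and 30.4 to 4.88, 3.99 and 4.36 CPM with HT-DNA and was at 1.86, 1.20 and 1.45 and at 0.840, 0.930 and 1.18 CPM in the groups without HT-DNA, which did not overlap but were not called different (interaction -2.17 ± 0.31). Igtp, the third member called, had 6, 9 and 8 counts with AOA and 7, 7 and 11 with AOA+Asp, against 248, 163 and 179 with HT+AOA and 36, 34 and 36 with HT+AOA+Asp.

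Among 25 tested sensors and adaptors of nucleic acids, 7 had a negative and 0 a positive interaction (0.785% and 0.266% of all tested genes). The list median was -0.432. The count was 4 without AOA replicate 1, AOA replicate 2, AOA+Asp replicate 1 or HT+AOA+Asp replicate 1, and 5 to 8 without any of the other libraries. Trex1, the exonuclease that degrades cytosolic DNA, was at 11.2, 12.1 and 15.6 CPM with HT+AOA and 4.21, 3.42 and 3.12 with HT+AOA+Asp, and between 1.69 and 2.11 in the 6 libraries without HT-DNA. The HT+AOA libraries were above all others (interaction -2.02 ± 0.25), but 97.6% of the 31-base words of Trex1 also occur in another gene model, so its level is uncertain. Rigi, a sensor of viral RNA, fell from 111, 70.4 and 71.7 to 27.1, 27.2 and 25.7 CPM with HT-DNA, while its 2 groups without HT-DNA lay between 5.98 and 8.38 CPM (interaction -1.28 ± 0.22).

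Tlr3, the endosomal receptor of double-stranded RNA, had the most negative interaction of all (-3.63 ± 0.54), at low counts. It had 4, 3 and 2 counts with AOA, 11, 17 and 23 with AOA+Asp, 31, 22 and 20 with HT+AOA, and 7, 10 and 16 with HT+AOA+Asp. Aspartate raised it by 2.32 without HT-DNA and lowered it with HT-DNA (-1.31), with no overlap in either pair. The DNA-sensing core itself was not called. Cgas, the DNA sensor, was at 5.80, 5.71 and 6.45 CPM with AOA, 6.07, 6.36 and 6.66 with AOA+Asp, 12.4, 11.2 and 8.41 with HT+AOA, and 7.45, 8.08 and 8.81 with HT+AOA+Asp, and the last 2 groups overlapped (interaction -0.49, 95% interval -0.91 to -0.07, edgeR's adjusted p = 0.355).

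Sting1, the adaptor downstream of cGAS, rose with aspartate by 0.42 without and 0.37 with HT-DNA, and its interaction had a 95% interval of -0.39 to 0.28. Irf3 fell by 0.28 without and 0.40 with HT-DNA, with an interval of -0.39 to 0.15. Zbp1, a sensor of Z-form nucleic acids, fell from 9.77, 8.93 and 9.72 to 1.74, 1.40 and 2.04 CPM with HT-DNA, and had no more than 2 counts in each AOA+Asp library, so no interaction is stated.

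Some genes outside the main lists belonged to the same expression pattern. Batf2, an interferon-induced bZIP factor, was at 4.54, 3.85 and 6.56 CPM with HT+AOA and 1.6, 1.64 and 1.56 with HT+AOA+Asp, and its 2 groups without HT-DNA overlapped between 0.362 and 1.71 CPM (interaction -2.37 ± 0.42). Ifi207, of the interferon-inducible p200 family, fell from 117, 69.8 and 69.9 to 23.6, 25.5 and 22.4 CPM with HT-DNA and was between 6.73 and 9.27 CPM without it (interaction -2.05 ± 0.24). Trim12c, a TRIM gene, rose from a mean of 2.14 to 3.37 CPM without HT-DNA and fell from 8.10 to 4.04 CPM with it (interaction -1.67 ± 0.31), with 47.7% of its 31-base words shared with other genes. Ifi202b, also of the p200 family and among the called genes of highest level, fell from 225, 259 and 259 to 131, 133 and 136 CPM with HT-DNA, while 91.3, 98.4 and 140 CPM with AOA overlapped 122, 106 and 108 CPM with AOA+Asp (interaction -0.92 ± 0.18). It lost its call in 8 of 23 alternatives.

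The remaining abundant genes with a negative interaction lost their call in 6 to 12 of 23 alternatives. Cops2, a subunit of the COP9 signalosome, rose with aspartate without HT-DNA by 0.39 and was not called with it at -0.21. Sfr1, which assists homologous recombination, likewise rose by 0.34 without and had -0.15, not called, with HT-DNA. Filip1l, a filamin A interacting protein with an interaction of -0.94 ± 0.19, rose by 0.53 without HT-DNA and fell by 0.41 with it, although 153, 115 and 91.0 CPM with HT+AOA overlapped 84.8, 92.6 and 92.4 CPM with HT+AOA+Asp. Prkg2, a cGMP-dependent kinase, fell by 0.50 with HT-DNA and had 0.22, not called, without it.

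Single members of other programs also had a negative interaction. Zfp36, which destabilizes cytokine mRNA, rose from 2.85, 2.49 and 2.97 to 4.43, 5.09 and 4.93 CPM without HT-DNA and fell from 5.28, 4.77 and 6.32 to 3.82, 4.71 and 4.21 CPM with it, with no overlap in either pair (interaction -1.16 ± 0.19). Of 38 immediate early genes 2 were called, Zfp36 and Maff, a small MAF factor, against 1.05% of all tested genes. Nfkbia, the inhibitor of NF-κB, was the only one of 26 NF-κB targets called, at -0.56 ± 0.13, and both it and Maff lost the call in 10 or 11 of 23 alternatives. Across those 26 targets aspartate lowered 22 with and 20 without HT-DNA (23.9% and 22.8% of all tested genes).

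Cdkn1a, the p53-induced inhibitor of cyclin-dependent kinases, fell by 0.20 without and by 0.84 with HT-DNA (interaction -0.64 ± 0.11), and was the 1 called member of 18 p53 targets. Of 36 replication genes, Ccne2 (cyclin E2) was called negative (-0.68 ± 0.13, call lost in 2 of 23 alternatives) and E2f2 positive. Over all tested genes 1.05% were called.

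The genes with a positive interaction held members of the unfolded protein response, the program by which the endoplasmic reticulum adjusts its folding and degradation capacity. Of 20 tested members, 3 had a positive and 0 a negative interaction (0.266% and 0.785% of all tested genes), at a median of 0.149. The count of 3 was 2 to 4 with each library left out. Aspartate raised 14 and lowered 2 with HT-DNA (23.7% and 23.9% of all tested genes), and raised 8 and lowered 2 without it (23.5% and 22.8%), and the difference of these counts was not tested. Herpud1 (ENSMUSG00000031770), which serves degradation of misfolded proteins, was at 84.5, 109 and 87.6 CPM with AOA, 121, 138 and 135 with AOA+Asp, 45.7, 48.4 and 61.8 with HT+AOA, and 147, 132 and 134 with HT+AOA+Asp. The HT+AOA libraries were the lowest of the 12, and neither pair overlapped (interaction 0.92 ± 0.15 SE, edgeR, adjusted p = 0.00302).

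Dnajb9, a co-chaperone of BiP, followed the same order with 70.0, 80.3 and 75.5 CPM with AOA, 99.9, 98.7 and 95.3 with AOA+Asp, 38.2, 42.0 and 42.8 with HT+AOA, and 85.9, 87.2 and 86.3 with HT+AOA+Asp. Aspartate raised it by 0.38 without and 1.08 with HT-DNA (interaction 0.70 ± 0.11). Xbp1, the factor activated by IRE1 splicing, had 159, 172 and 162 CPM with AOA and 157, 169 and 158 with AOA+Asp, which overlapped, and rose from 105, 110 and 125 to 155, 159 and 150 CPM with HT-DNA (interaction 0.47 ± 0.10, call lost in 8 of 23 alternatives). The gene for the sensor kinase PERK, Eif2ak3, outside the list, was also among the 38.

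The most positive interaction was that of Mnt (ENSMUSG00000000282), a repressor that opposes MYC. It was at 20.7, 21.2 and 20.2 CPM with AOA, 18.8, 24.1 and 19.0 with AOA+Asp, 6.27, 5.90 and 8.05 with HT+AOA, and 15.8, 13.9 and 17.0 with HT+AOA+Asp. The HT+AOA libraries were clearly the lowest, the groups without HT-DNA overlapped, and among the 38 positive genes its interaction of 1.22 ± 0.16 was the only one of at least 1.

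Hbp1 (ENSMUSG00000002996), a repressor of cell cycle genes, rose from 37.4, 40.4 and 40.5 to 81.0, 70.8 and 76.6 CPM without HT-DNA and from 11.9, 10.0 and 9.18 to 35.9, 38.5 and 37.2 CPM with it. The log2 rise was larger with HT-DNA (1.84 against 0.95, interaction 0.89 ± 0.13), but the rise in CPM was smaller with HT-DNA by 9.84 CPM, so the direction depends on the scale. The same held for Pnrc1, a nuclear receptor coactivator (interaction 0.81 ± 0.15, additive difference -2.46 CPM, call lost in 2 of 23 alternatives). It also held for Ccng2, cyclin G2 (interaction 0.72 ± 0.17, additive difference -1.92 CPM), whose call was lost in 17 of 23 alternatives. These were the 3 of 38 positive genes that changed sign in CPM, while 0 of 112 negative genes did.

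Opposite aspartate effects were called for 3 positive genes. Ubald1, whose product has a UBA-like domain, fell from 13.9, 15.1 and 14.4 to 9.52, 10.7 and 9.56 CPM without HT-DNA and rose from 4.34, 5.13 and 5.84 to 5.95, 7.17 and 6.2 CPM with it (interaction 0.89 ± 0.17, call lost in 4 of 23 alternatives). Cbx2, a Polycomb chromatin reader, fell from 39.6, 44.3 and 41.2 to 28.4, 30.3 and 33.7 CPM without HT-DNA and rose from 21.4, 22.6 and 25.1 to 29.7, 28.4 and 27.4 CPM with it (interaction 0.75 ± 0.12). In each of these pairs the libraries did not overlap. Without AOA, mean Ubald1 was 8.25 CPM in Mock and 5.94 with HT-DNA, and mean Cbx2 was 29.0 and 31.2 CPM. Trim35, a TRIM-family gene, fell from a mean of 231 to 191 CPM without HT-DNA and rose from 187 to 215 CPM with it (interaction 0.48 ± 0.09, call lost in 3 of 23 alternatives).

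E2f2, a factor that drives replication genes, rose by 1.22 without and 1.94 with HT-DNA (interaction 0.72 ± 0.14, call lost in 5 of 23 alternatives), and Podnl1, a leucine-rich repeat protein gene, had 0.74 ± 0.17 with its call lost in 12 of 23. Of the abundant positive genes, Pdgfrb, a receptor of PDGF and a fibroblast marker, rose by 0.51 without and 0.96 with HT-DNA, and it lost its call in 12 of 23 alternatives. Zfp740, a zinc finger gene, was not called without HT-DNA at -0.03, rose by 0.34 with it and lost its call in 11 of 23. Plin4, a lipid droplet protein gene, rose by 0.76 without and 1.29 with HT-DNA and lost its call in 2 of 23.

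Of 36 tested genes of the amino acid response, aspartate lowered 28 with HT-DNA and 27 without (23.9% and 22.8% of all tested genes). Of the 36 genes 1 was called for the interaction, against 1.05% of all tested genes, and the list median was 0.154. This was Nupr1, a stress-induced chromatin protein gene (-0.53 ± 0.11), which lost its call in 7 of 23 alternatives. Ddit3 fell from 347.6, 373.6 and 385.4 to 101.3, 104.2 and 107.2 CPM without HT-DNA and from 345.9, 396.9 and 417.2 to 136.8, 121.3 and 117.6 CPM with it. The fall was by 1.82 without and by 1.63 with HT-DNA on the log2 scale, and the interaction was 0.20 ± 0.12 with an adjusted p of 0.647 in edgeR's test. Asns fell by 0.43 without and 0.28 with HT-DNA, and the 95% interval of its interaction was -0.02 to 0.32.

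Lists of aspartate use (17 tested), pyrimidine synthesis and salvage (21), NRF2 targets (14), HIF targets and glycolysis (27), mitosis (25), mitochondrially encoded mRNA (13) and MHC class I antigen presentation (20) had 0 genes called for the interaction by edgeR. Of their 137 genes 20 had an unadjusted p under 0.05, and DESeq2 called 2 and limma-voom 0. Of all 14263 tested genes, 1504 had such a p and edgeR called 1.05%, while DESeq2 called 322 and limma-voom 124. At these shares, 0 called in lists of this size does not show that an interaction is absent. Cad, which encodes the enzyme of the first steps of pyrimidine synthesis and uses aspartate, was at 522.2, 537.9 and 484.1 CPM with AOA and 356.5, 420.5 and 407.8 with AOA+Asp, and at 467.8, 448.3 and 530.1 CPM with HT+AOA and 442.4, 433.8 and 426.9 with HT+AOA+Asp. The groups did not overlap in either pair, the aspartate effect was called without HT-DNA (-0.38) and not with it (-0.15), and the interaction of 0.23 was not called (95% interval 0.01 to 0.46, edgeR's adjusted p = 0.46).

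**Figure D4:**
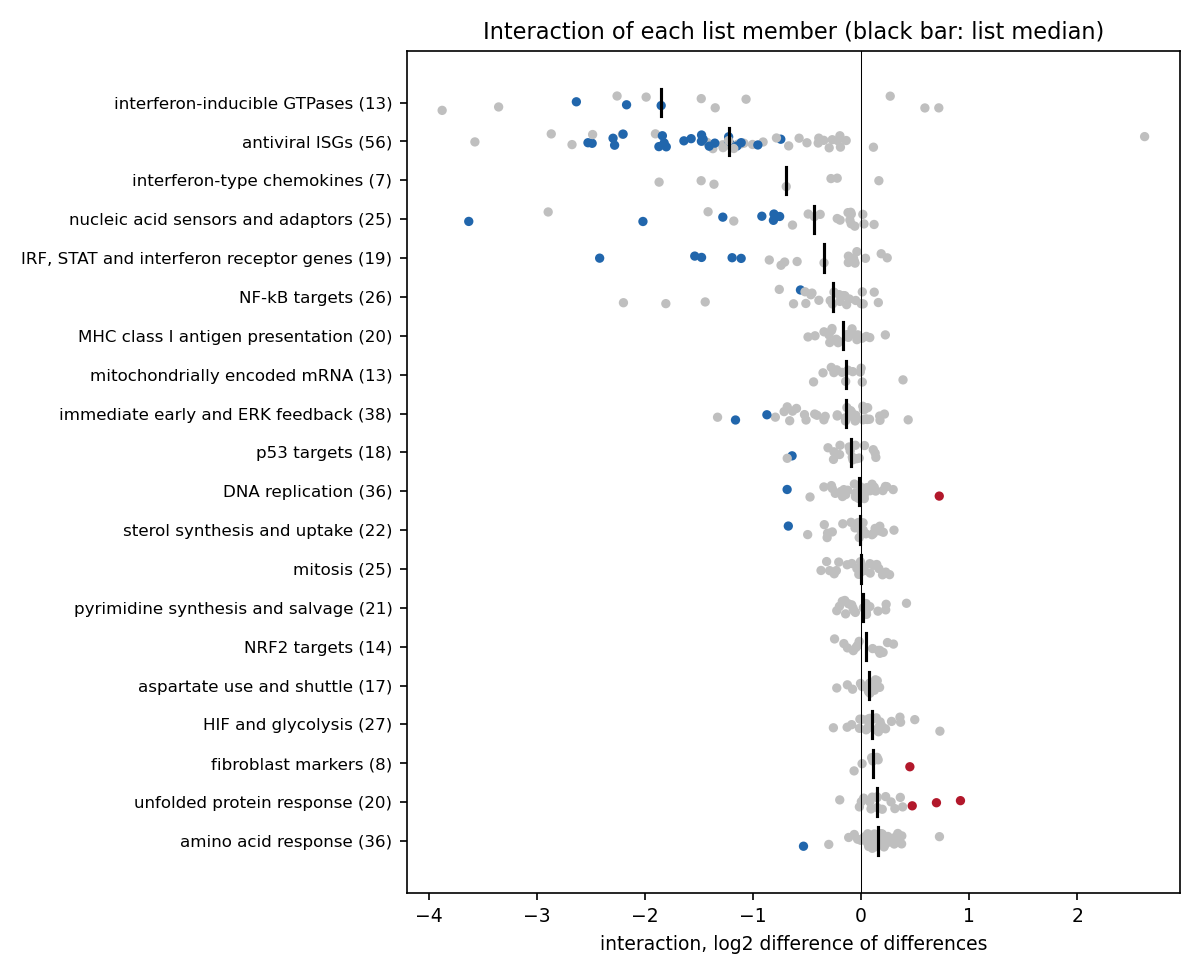
Interaction (x axis, log2 difference of differences) of each tested member of the lists with at least 7 tested members, whose number is given in brackets. Blue points were called negative, red points positive and grey points not called, and the black bar is the list median. Grey points include genes with at most 3 counts in every library of a group, whose fitted values are not interpretable as folds. The medians of GTPases (-1.85) and antiviral ISGs (-1.23) lie furthest from 0, whereas those of amino acid response (0.154) and unfolded protein response (0.149) lie just above it.

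The aspartate effects with and without HT-DNA describe the form of the interaction in the called genes. The difference of these same effects selected the genes and gave the sign. A contrast between negative and positive genes is thus largely set by that selection and was not tested. Over all tested genes, aspartate lowered 23.9% and raised 23.7% with HT-DNA, and lowered 22.8% and raised 23.5% without it. Among the 112 negative genes, 41 were lowered by aspartate with HT-DNA and not called without it, 25 were lowered under both conditions, 20 were lowered with and raised without HT-DNA, 20 were raised without HT-DNA and not called with it, and 6 were raised under both and less with HT-DNA. Among the 38 positive genes, 21 were raised under both and more with HT-DNA, 9 were raised with HT-DNA and not called without it, 4 were lowered without HT-DNA and not called with it, 3 had opposite effects and 1 was lowered under both. The median aspartate effect of the negative genes was -0.811 with and 0.185 without HT-DNA, and that of the positive genes was 0.762 with and 0.282 without.

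Libraries outside the comparison showed how untreated cells respond to HT-DNA at these genes. HT-DNA without AOA, compared with Mock, changed 48.2% of tested genes. It raised 68 of the 112 negative genes (60.7%, against 24.2% of all tested genes) and lowered 13 (11.6%, against 24%). It raised 10 (26.3%) and lowered 13 (34.2%) of the 38 positive genes. The median HT-DNA response of the negative genes was 0.409 in untreated cells, 1.13 with AOA and 0.157 with AOA+Asp, and that of the positive genes was -0.0801, -0.585 and -0.0508. The last 2 values of each set come from the libraries that define the interaction and describe its form, and 106 of the negative genes were raised by HT-DNA with AOA and 36 with AOA+Asp (6.46% and 1.93% of all tested genes, of which 13.4% and 3.45% were called in either direction), while 36 of the positive genes were lowered with AOA and 7 with AOA+Asp (6.98% and 1.52%).

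**Figure D5:**
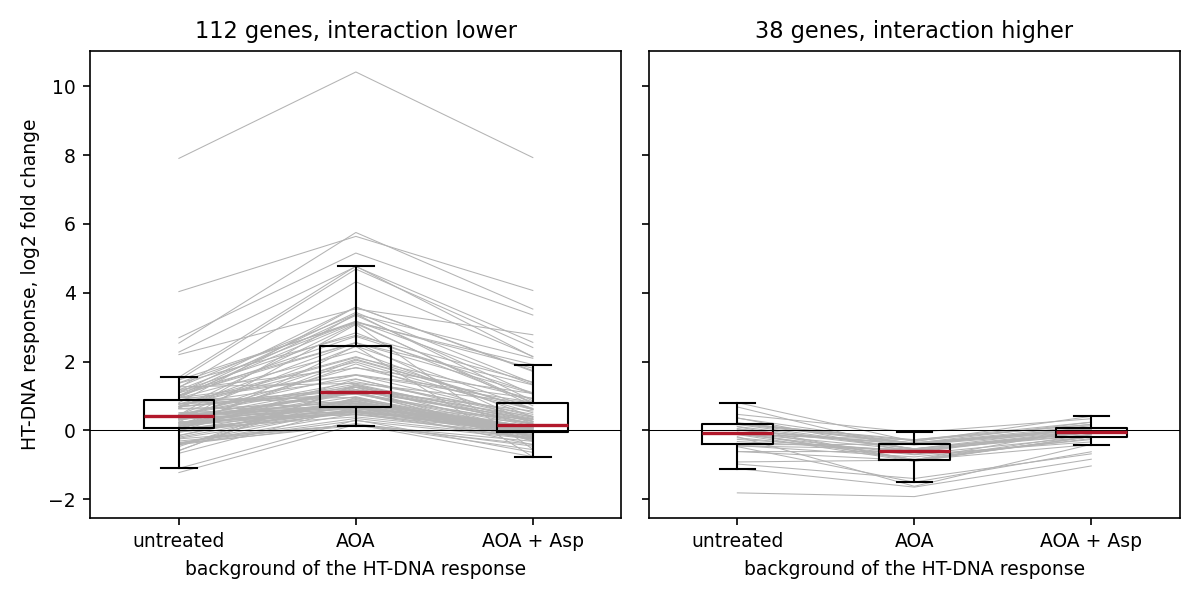
HT-DNA response (y axis, log2 fold change over the group without HT-DNA) in untreated cells, with AOA and with AOA+Asp, for the 112 negative genes (left) and the 38 positive genes (right). Grey lines join the values of a gene, boxes give the quartiles, red lines the medians and whiskers reach the furthest value within 1.5 box heights. The medians of the left panel are 0.409, 1.13 and 0.157, and those of the right panel are -0.0801, -0.585 and -0.0508.

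Irf7 showed this order in single libraries. It was at 2.45, 2.34 and 2.47 CPM in Mock and 4.55, 4.97 and 4.98 with HT-DNA alone, a response of 1.00 that compares with 3.13 under AOA and 0.71 under AOA+Asp. Hbp1 instead fell in untreated cells from 52.2, 48.0 and 54.2 to 13.9, 15.7 and 14.2 CPM, a response of -1.82, against -1.92 under AOA and -1.03 under AOA+Asp. Ifit2 was not called for HT-DNA in untreated cells (-0.02) and rose by 2.45 under AOA.

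Whether aspartate returned the HT-DNA response to that of untreated cells was tested as the difference between the response under AOA+Asp and the response without AOA, which shares 6 libraries with the interaction. Over all tested genes 891 were called (6.25%), 462 higher (3.24%) and 429 lower (3.01%), or 731 higher and 201 lower when libraries were scaled by their totals. Counts over the genes called for the interaction are not given, since both tests contain the difference between HT+AOA+Asp and AOA+Asp. Of 56 antiviral ISGs 1 was higher and 0 lower, at a median of 0.225, and their median HT-DNA response was 0.841 in untreated cells, 2.54 with AOA and 1.14 with AOA+Asp. The 13 GTPases had 0 called at a median of 1.28, but 7 of them had a group with at most 3 counts in every library. The medians of the sensor, chemokine, antigen presentation and IRF and STAT lists lay between -0.178 and 0.183. A gene that was not called is not shown to be equal. The total of 891 genes was not stable. It was 1085 without HT-DNA replicate 2 and 129 to 592 without any of the other 11 libraries, lowest without AOA+Asp replicate 2.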

How the data were processed

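L929 RNA was sequenced in 3 independent cultures for each of 6 groups, which were taken from the sample labels. For 57180 genes, the authors deposited expected counts, that is, estimated numbers of reads, without normalization. The aligner, counting program and genome build are not given in the sources used here. The values (11.6% not whole) were rounded, since the planned test assumed whole counts.

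The test was run with edgeR 4.0.16 under R 4.3.3. Its function filterByExpr (minimum count 10, minimum total 15) kept 14263 genes, TMM scaled the libraries, and all 18 libraries entered 1 robust quasi-likelihood model with 12 residual degrees of freedom. The standard errors therefore rest on a spread shared by all 6 groups, although HT+AOA had the largest (mean SD 0.218 against 0.0874 to 0.122). Genes with a Benjamini-Hochberg adjusted p under 0.05 were called, and 95% intervals came from the standard errors of the model. A count of 0 allows up to 3 counts. Intervals and this limit cover the spread between these cultures or counting error only. The steps were tested on simulated data, drawn with 1 spread per gene for all groups and so without the larger spread of HT+AOA. Of 50 genes each, 31 were recovered at an interaction of -1, 28 at 1, 39 at -2 and 42 at 2, and 5 unchanged genes were called. A gene that was not called can thus still have an interaction.

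Named genes were the 10 largest interactions in each direction with at least 0.5 CPM in each of the 4 groups and 2 CPM in one, the 5 largest in each direction with opposite aspartate effects at the same levels, the 5 most abundant in each direction, and called or central members of 23 lists. Predicted genes without a proper name were passed over. Eif2ak3, Ddit3 and Trib3 were named after their values were seen. The members and lists were chosen with earlier results of these data known. Alternatives were limma 3.58.1 (voom), DESeq2 1.42.0, other filters and scalings, fewer libraries, a replicate block, and a correction for GC content and length from GENCODE vM21, which covers 97.5% of the tested genes. That correction, and the analysis with 1 library of HT+AOA, were chosen after seeing the data. Results for some genes are not reported here.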

Additional observations from a re-analysis of the deposited data

Results flagged for a closer look

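The aspartate effect differed between cells with and without HT-DNA for 150 genes by the test of the difference itself. The HT-DNA response under AOA+Asp differed from that of untreated cells for 891 genes. Aspartate effects of opposite sign, both called, were found in 20 genes with a negative and 3 with a positive interaction. Among the named genes, such effects, with the difference tested, gave interactions of -3.63 for Tlr3, which had low counts, -1.85 for Irgm1, -1.82 for Ifit2, -1.67 for Trim12c, -1.54 for Irf1, -1.48 for Stat2, -1.16 for Zfp36, -0.942 for Filip1l, 0.885 for Ubald1, 0.75 for Cbx2 and 0.477 for Trim35.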

How the results depend on the processing

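The interaction was called for 150 genes, 112 lower and 38 higher. The count was 54 (53 and 1) with an absolute log2 difference of at least 1, 66 (60 and 6) with the libraries compared alone, 303 (220 and 83) with no filter, 322 (206 and 116) with DESeq2 and 392 (212 and 180) after adjusting for GC content and gene length, and with 1 library of HT+AOA 58 genes were higher. The share lower was 74.7% in the reported test, 54.1% after that adjustment and 90.9% with the libraries compared alone. With each library left out the total was 69 to 416, with 56 to 246 lower and 13 to 182 higher. At that log2 minimum the aspartate effect was called for 1101 genes with HT-DNA and 1025 without, and the HT-DNA response of untreated cells for 623. In the libraries compared alone the aspartate effect with HT-DNA was called for 4278 genes. The difference from untreated cells was called for 96 genes at the log2 minimum, 1523 with the GC and length correction, 1906 with DESeq2, 2192 with no filter and 4409 with the libraries compared alone, and for 129 to 1085 with each library left out. The cause of these changes was not tested. Scaling by library totals moved the split of higher against lower genes from 3386 and 3411 to 4194 and 2548 for aspartate with HT-DNA, from 3345 and 3255 to 4087 and 2484 without, and from 3454 and 3425 to 2408 and 4437 for HT-DNA in untreated cells. On the additive CPM scale the direction of Ccng2 (-1.92), Hbp1 (-9.84) and Pnrc1 (-2.46) was reversed. Among the named genes that were called, no other changed direction. Sting1, which was not called, ranged from -0.13 to 0.00912 over the alternatives. Of 49 named genes that were called, 19 kept the call in every alternative on the log2 scale, 18 of 34 lower and 1 of 15 higher, and 26 (21 lower and 5 higher) did when the log2 minimum was left aside. Replicate numbers were not used to pair the samples. Correlations were -0.181 to 0.506 in 18 same-numbered pairs, 5 of them over 0.1. Pairs of unlike numbers were not computed, so whether the numbers pair the samples was not settled. A replicate block gave 132 genes, 101 lower and 31 higher. Antiviral ISGs had 18 to 33 genes called over the other alternatives, against 23. At the lowest depth of 17901605 counts, genes with at most 3 counts in a group gave no interaction.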

Other observations

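The test against untreated cells named gene groups that the interaction did not. Of 36 tested genes of the amino acid response, 15 had a higher HT-DNA response under AOA+Asp than in untreated cells and 0 a lower one. Over all tested genes the shares were 3.24% and 3.01%. The count of 15 was 8 without HT+AOA+Asp replicate 1 or Mock replicate 1, 9 without AOA+Asp replicate 2 or HT-DNA replicate 3, and up to 15 without another library. The list's median response was -0.109 in untreated cells and 0.0962 under AOA+Asp. Ddit3 fell with HT-DNA from 47.0, 42.9 and 48.7 to 38.9, 30.9 and 36.9 CPM in untreated cells, and had 101.3, 104.2 and 107.2 CPM with AOA+Asp against 136.8, 121.3 and 117.6 with HT+AOA+Asp. The difference of these responses was 0.64 ± 0.13 (edgeR, adjusted p = 0.0112), and that of Trib3, a pseudokinase of the same program, was 0.57 ± 0.14.

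Of 22 tested genes of sterol synthesis and uptake, 11 had a higher and 0 a lower HT-DNA response under AOA+Asp (8 to 11 higher with each library left out). HT-DNA lowered 15 of the 22 and raised 1 in untreated cells (24% and 24.2% of all tested genes), at a median of -0.311. The median under AOA+Asp was 0.0863. The share of genes called higher over all tested genes was 3.24%.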
